A study of Mus musculus with 18 samples.

Results

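The genes described here are 31 genes that are best known from the sensory neurons of the dorsal root and trigeminal ganglia, out of 55573 genes in the count table. They were chosen by their counts in a single sample, F1/proestrus 5, set against the other samples, so the values of that sample against the other 17 describe how the genes were picked and carry no test. The tissue sequenced was the spinal cord's dorsal horn (DHSC) on the side of a formalin-injected hind paw, in adult C57BL/6J mice. All animals had received 2% formalin into the hind paw 2 h earlier, and no uninjected group is analysed here. The groups were 6 females with the F1 behavioral response and in proestrus (F1/proestrus), 6 females with the F2 response and in metestrus (F2/metestrus), and 6 males, with the cycle stage read from vaginal smears after the behavioral test. Each sample is bulk tissue from the lumbar cord, so fewer cells of a type and less RNA per cell cannot be told apart. The labels do not say whether a sample is 1 mouse, and p-values measure the spread between these samples.

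Total counts were between 73590509 and 125724156 per sample, 115074352 of them in F1/proestrus 5, and 3 counts corresponded to 0.0239 to 0.0408 CPM, counts scaled to the size of the library. TMM normalization factors were between 0.966 and 1.03, with 0.993 in F1/proestrus 5. The deposited counts carry library numbers, which run from 27 to 35 for replicates 1 to 3 and from 188 to 196 for replicates 4 to 6 of each group. These runs are called the library series, and F1/proestrus 5 has the number 192. Intervals of counts would cover counting error only.

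The cell bodies of primary sensory neurons lie in ganglia outside the cord, and their central axons enter the dorsal horn through the dorsal roots. Nociceptors, the subset that responds to damaging stimuli, carry the sodium channels Nav1.7, Nav1.8 and Nav1.9 and irritant- or heat-gated TRP channels, and many carry Mas-related (Mrgpr) receptors. The dorsal horn holds the second-order neurons on which these axons end. Some of the genes are not particular to ganglia: peripherin (*Prph*) and *Isl2* are also made by spinal motor neurons.

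The genes lie on 14 chromosomes, with some in clusters. *Scn10a* (chr9:119608456-119719322, minus strand) and *Scn11a* (chr9:119753759-119825456, minus strand) are neighbors on mm10, 34.4 kb apart. *Mrgprb5* and *Mrgprb4* are 29.1 kb apart on chromosome 7, and *Mrgprx1* lies 140 kb from *Mrgprb5*. Because these receptors are close paralogs and reads were mapped uniquely, their counts are uncertain. Exons of *Prdm12*, *Avil*, *Scn9a*, *Trpm8* and *Mrgpre* overlap exons of a gene on the opposite strand, and those of *Plxnc1* overlap a gene on its own strand. Whether counting used the strand is not given in the sources used here, so reads of *Prdm12* and its antisense partner *Gm13425* cannot be told apart.

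Promoters are shown for 3 of the genes whose values in F1/proestrus 5 stood farthest above every other sample, since genes that are high together invite a look at the sequence before their starts. *Mrgprd*, *Scn11a* and *Avil* were taken after *Scn10a*, whose window lies in an annotated first exon and is not shown. Each is the 250 bases before the RefSeq start in GRCm38.p6, 5′ to 3′ on the gene's strand, at chr7:145314585-145314834 (plus strand), chr9:119825457-119825706 (minus strand) and chr10:127000459-127000708 (plus strand). Capitals mark a match to any of 3 motifs, each searched on both strands, and matches of different motifs may overlap. The first was TAATTA, a core of homeodomain sites that reads the same on both strands. The second was TGTGGT, the core of Runx sites. The third was TATAAA, the core of the TATA box.
Mrgprd: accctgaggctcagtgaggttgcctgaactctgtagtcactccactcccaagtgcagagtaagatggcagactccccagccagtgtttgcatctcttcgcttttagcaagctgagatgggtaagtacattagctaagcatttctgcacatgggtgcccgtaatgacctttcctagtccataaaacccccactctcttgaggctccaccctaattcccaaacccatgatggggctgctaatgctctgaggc
Scn11a: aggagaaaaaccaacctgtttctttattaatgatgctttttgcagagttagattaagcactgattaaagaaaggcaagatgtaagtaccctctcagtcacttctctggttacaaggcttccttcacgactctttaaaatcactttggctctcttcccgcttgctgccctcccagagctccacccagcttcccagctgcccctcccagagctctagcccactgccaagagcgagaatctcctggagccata
Avil: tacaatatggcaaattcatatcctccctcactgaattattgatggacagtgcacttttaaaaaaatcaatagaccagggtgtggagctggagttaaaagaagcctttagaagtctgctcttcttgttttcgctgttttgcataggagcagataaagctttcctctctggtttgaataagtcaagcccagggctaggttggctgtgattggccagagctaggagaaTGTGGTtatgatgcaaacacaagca
Of the 31 genes, 26 had a promoter in the RefSeq table, with 27 promoters in all because *Lpar5* has 2. TGTGGT was in 5 of the 27 (18.5%) and in 14.0% of all 32851 promoters. Those 5 belong to *Avil*, *Trpv1*, *Asic3* and *Lpar5*. TATAAA was in 4 (14.8%, against 12.4% of all) and TAATTA in 1 (3.70%, against 4.84% of all), and the median number of CG dinucleotides was 5, against 6 over all promoters. A match is a description of the letters, not of a bound site.

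F1/proestrus 5 held the highest value of 30 of the 31 genes, with *F2rl2* as the exception. Among the 28566 genes with at least 10 counts in some sample, 7.23% were highest in this sample, and 0.406% (116 genes) were at least 4 times the highest of the other 17 samples. Of the sensory ganglion genes, 24 were at least 2 times, 19 at least 4 times and 17 at least 8 times that level, where the whole table had 0.889%, 0.406% and 0.217%. At most 3 counts were seen in any other sample for 4 of the 19. The gene just inside a ratio of 4 was *Fam19a4* (4.51) and the gene just outside it was *Piezo2* (3.92). These shares follow from how the genes were picked.

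**Figure D1:**
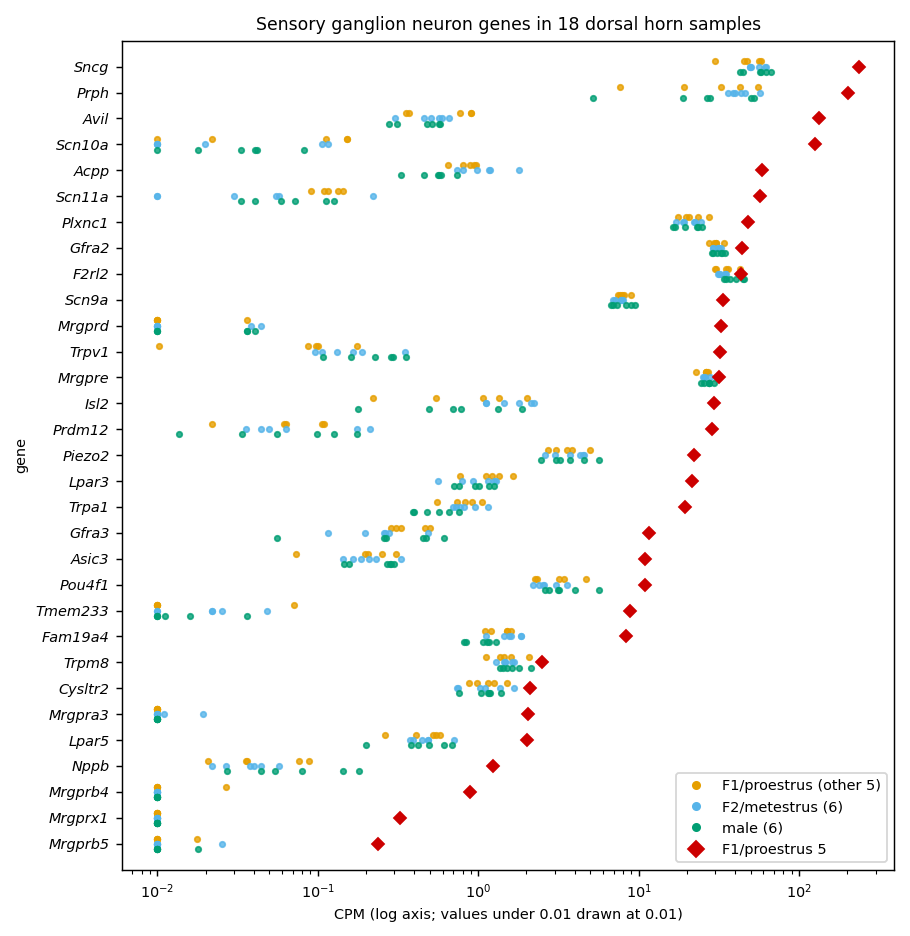
CPM of the 31 genes in each of the 18 samples, on a log axis on which values under 0.01 are drawn at 0.01. The red diamond is F1/proestrus 5 and each dot is another sample, colored by group. The diamond is farthest right for every gene but *F2rl2*, from 0.236 CPM for *Mrgprb5* to 238 CPM for *Sncg*.

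Of the sodium channels, *Scn10a* showed the widest gap, at 817 times the next sample, with *Scn11a* at 257 times and *Scn9a* at 3.54 times. *Scn10a*, which encodes Nav1.8, had 14289 counts (125 CPM) in F1/proestrus 5. In the other F1/proestrus samples it had 0, 0.022, 0.113, 0.151 and 0.153 CPM. The lowest, median and highest values were 0, 0.00996 and 0.115 CPM in F2/metestrus and 0, 0.037 and 0.0815 CPM in males. No other sample exceeded 17 counts of *Scn10a*, and F1/proestrus 5 held 99.3% of its CPM summed over the 18 samples. *Scn11a*, which encodes Nav1.9, had 57.2 CPM against 0 to 0.223 CPM, with 97.6% of its summed CPM in that sample. *Scn9a*, which encodes Nav1.7, was measurable throughout at 6.70 to 9.51 CPM, and stood at 33.7 CPM in F1/proestrus 5. The groups overlapped for all 3 channels once that sample was set aside.

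The Mrgpr receptors, which mark nociceptor and itch neuron subsets, split into 5 genes close to absent elsewhere and 1 gene present everywhere. *Mrgprd* (chr7:145314835-145324086), a marker of nonpeptidergic nociceptors, had 3754 counts (32.9 CPM) in F1/proestrus 5 and at most 5 counts in any other sample, with 10 of the other 17 at 0. *Mrgpra3*, found in itch neurons, had 233 counts against at most 2. *Mrgprb4*, found in touch-responsive fibers, had 101 counts against at most 3, and *Mrgprb5* had 27 against at most 2. *Mrgprx1* was counted 37 times in F1/proestrus 5 and not at all in the other samples, which places it at least 12.3-fold above the 3 counts per library that a count of 0 allows. In contrast, *Mrgpre* was measured at 22.9 to 30.8 CPM across the other samples and at 31.7 CPM in F1/proestrus 5, a ratio of 1.03 to the next sample. For *Mrgpre* the distance between F1/proestrus 5 and the next sample was smaller than the spread among the other samples.

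Among the transduction channels, *Trpv1*, the heat and capsaicin channel, had 32.2 CPM against 0.0103 to 0.356 CPM (median 0.16). *Trpa1*, the irritant channel through which formalin excites nociceptors, had 19.6 CPM against 0.393 to 1.14 CPM (median 0.741). *Asic3*, an acid-sensing channel, had 11.0 CPM against 0.0728 to 0.329 CPM. For each of these channels F1/proestrus 5 was far above the other samples of all groups, at 90.6, 17.1 and 33.6 times the highest of them. *Piezo2*, the mechanically activated channel of touch and proprioceptive neurons, had 22.2 CPM against 2.45 to 5.66 CPM. *Trpm8*, the cold and menthol channel, was much closer to the rest, with 2.49 CPM against 1.12 to 2.14 CPM, a ratio of 1.16 to the next sample. 

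Among the transcription factors, *Prdm12*, required for the nociceptor lineage, had 28.8 CPM in F1/proestrus 5 and 0.0136 to 0.211 CPM elsewhere, with the antisense overlap named above. *Isl2*, a LIM homeodomain factor, had 29.5 CPM against 0.178 to 2.24 CPM. *Pou4f1*, which encodes Brn3a and specifies sensory neurons, had 10.9 CPM against 2.19 to 5.64 CPM. *Pou4f1* was thus expressed in every sample, and its next highest value was in male 5.

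The structural and soluble proteins were the most abundant of the genes. Per length, *Sncg* (gamma-synuclein) stood at 279 RPKM, which is CPM divided by the kilobases of exon, in F1/proestrus 5, *Prph* at 102 RPKM and *Avil* at 38.9 RPKM, ahead of *F2rl2* (17.4 RPKM) and *Scn10a* (15.7 RPKM). *Avil* (chr10:127000709-127020994) encodes advillin, an actin-binding protein of peripheral sensory neurons, and it had 132 CPM against 0.279 to 0.903 CPM. Its ratio to the next sample was 147. *Prph* and *Sncg* were well expressed in the other samples, at 5.22 to 57.5 CPM and 29.7 to 66.8 CPM, against 203 and 238 CPM. Their ratios to the next sample were 3.53 and 3.56.

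The cell-surface receptors were a mixed class. *Gfra3*, the artemin co-receptor of peptidergic nociceptors, had 11.7 CPM against 0.0561 to 0.616 CPM, and *Lpar3*, a lysophosphatidic acid receptor, had 21.7 CPM against 0.562 to 1.65 CPM. *Lpar5* had 2.02 CPM against 0.200 to 0.705 CPM. *Plxnc1*, a semaphorin receptor, had 47.9 CPM against 16.3 to 27.4 CPM. *Gfra2*, the neurturin co-receptor, had 44.3 CPM against 27.3 to 34.4 CPM, and *Cysltr2*, a leukotriene receptor, had 2.09 CPM against 0.737 to 1.68 CPM. *F2rl2*, which encodes the protease-activated receptor PAR3, had 43.5 CPM in F1/proestrus 5, below male 4 (44.9 CPM) and male 5 (45.4 CPM). The ratio of F1/proestrus 5 to the highest other sample thus ran from 18.9 for *Gfra3* to 0.959 for *F2rl2*.

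Of the remaining genes, *Acpp*, which encodes prostatic acid phosphatase, an enzyme of nonpeptidergic nociceptors, had 58.9 CPM against 0.329 to 1.80 CPM. *Fam19a4*, which encodes the secreted protein TAFA4 of C-fiber low-threshold mechanoreceptors, had 8.34 CPM against 0.814 to 1.85 CPM. *Nppb*, a peptide of itch neurons, had 1.24 CPM against 0.0206 to 0.180 CPM. *Tmem233*, a membrane protein, had 8.78 CPM (1003 counts) against at most 8 counts.

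The highest of the other 17 samples changed from gene to gene. It was spread over 15 of the 17, and no sample held this place for more than 4 genes. *Mrgprx1*, at 0 counts in all 17, was a tie and was counted for F1/proestrus 1. The same count was made for each library over the whole table. The other 17 samples had 0 to 26 genes (median 3) at least 4 times above every other sample. None of the 31 genes was among these, which was fixed in advance for the 30 genes highest in F1/proestrus 5. Restricted to genes with at least 100 counts in the library itself, F1/proestrus 5 had 77 genes at this 4-fold level and the other samples 0 to 2.

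**Figure D2:**
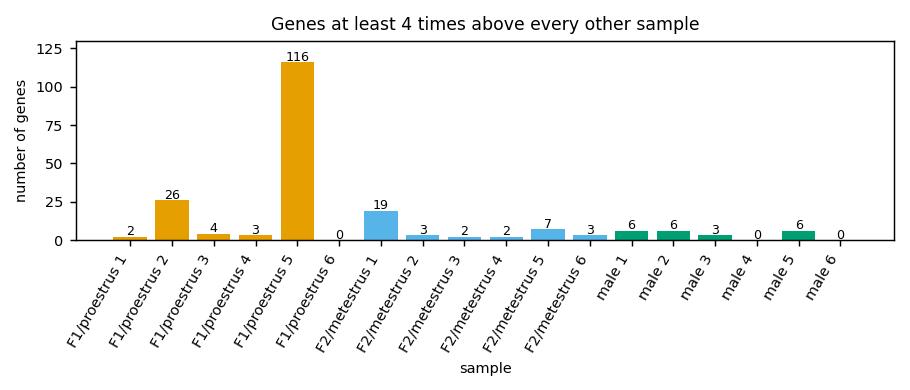
Number of genes, of 28566, whose CPM in a sample was at least 4 times the highest of the other 17 samples, as 1 bar per sample. F1/proestrus 5 had 116 such genes, F1/proestrus 2 had 26, F2/metestrus 1 had 19 and every other sample had at most 7.

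Other genes stood out in F1/proestrus 5 in the same way. The 18169 genes with at least 100 counts in F1/proestrus 5 were ranked by the ratio to the next sample. Of the top 10, 8 belonged to the 31, as did 16 of the top 50. The rule used these same values, so these places follow from how the genes were picked. The 10 highest genes outside the list were *Tmem45b*, *Tlx2*, *Gm13425*, *Pirt*, *Mrgprx3-ps*, *Mrgpra2b*, *Gm5734*, *Gm7255*, *Tusc5* and *Hmx1*. *Pirt*, which encodes a regulator of TRPV1, had 158 CPM against 0.669 to 1.80 CPM, and *Tmem45b* had 29.5 CPM against 0 to 0.198 CPM. *Gm5734*, *Gm7255* and *Hmx1* had at most 3 counts in any other sample.

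Lists of marker genes written for the cell types that a dorsal horn sample could hold were read in the same way, with F1/proestrus 5 beside the others. All 16 of 16 further ganglion neuron genes were highest in F1/proestrus 5, 7 of them by at least 4 times, and their summed level was 789 CPM against 168 to 236 CPM. *P2rx3*, an ATP receptor, had 30.0 CPM against 0.664 to 1.63 CPM, and *Calca*, the precursor of the peptide CGRP, 162 against 6.34 to 33.5 CPM. The 9 Schwann cell genes, the myelinating glia of nerves and roots, summed to 2907 CPM in F1/proestrus 5, above the other females (1474 to 2169 CPM) and within the males (2125 to 4955 CPM). None of the 9 was highest in F1/proestrus 5 over all samples, though 8 were highest there among females. *Pmp22*, a protein of peripheral myelin, had 1414 CPM against 651 to 2363 CPM.

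Markers of satellite glia, which surround ganglion cell bodies but share their markers with astrocytes, did not stand apart in sum, at 793 CPM for 4 genes against 670 to 841 CPM. *Gja1* alone made up 542 CPM of that sum. Of the 4, 1 gene was highest in F1/proestrus 5, *Ednrb* at 121 CPM against 84.5 to 118 CPM. *Fabp7*, *Kcnj10* and *Gja1* were within the range of the other samples. The 5 fibroblast genes summed to 474 CPM, just above the 209 to 461 CPM of the other samples, with 1 of 5 highest in F1/proestrus 5. The 4 globin genes of red blood cells, at 184 CPM, were within the 48.8 to 353 CPM of the others. The 11 dorsal horn neuron genes summed to 974 CPM, within 889 to 1155 CPM, and none of them was at 0 in any sample. *Slc17a6*, the vesicular glutamate transporter, had 266 CPM against 238 to 276 CPM. *Slc32a1* and *Gad1*, of inhibitory neurons, were lowest in F1/proestrus 5, at 40.2 CPM against 43.0 to 55.6 CPM and 225 CPM against 226 to 272 CPM. *Tlx3*, which ganglion neurons also express, was the only gene of this list highest in F1/proestrus 5, at 7.73 CPM against 3.09 to 6.14 CPM. The part of any of these cell types in the values of the 31 genes was not tested.

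**Figure D3:**
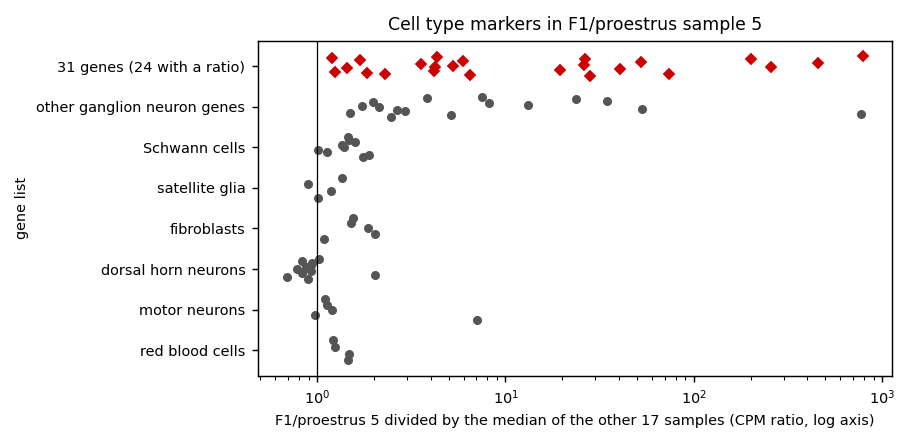
CPM in F1/proestrus 5 divided by the median of the other 17 samples, on a log axis, with 1 point per gene. The 24 sensory ganglion genes with a median above 3 counts are red diamonds, and grey dots are the genes of the 7 marker lists. All 16 further ganglion neuron genes lie right of 1, and 10 of the 11 dorsal horn neuron genes lie between 0.691 and 1.03.

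The comparison of F2/metestrus with F1/proestrus addresses whether the 2 female responses and cycle stages differ in the DHSC. It gave no call for these genes, and its direction for them rested on F1/proestrus 5. With edgeR (quasi-likelihood, Benjamini-Hochberg adjusted, FDR of 5%), 0 of 24042 genes were called (0%), 596 genes (2.48%) had an unadjusted p under 0.05, and DESeq2 called 2 genes (0.00453%), neither of them from the list. Without its handling of outlying counts DESeq2 called 5 genes (0.0113%), and without F1/proestrus 5 it called 2 (0.00455%), with 0 from the list each time. Of the 31 genes, 23 had enough counts to be tested. With all 12 females, 22 of the 23 had a lower estimate in F2/metestrus, 10 had an unadjusted p under 0.05 and the median log2 fold change was -0.72, beside -0.00038 over all genes tested. That direction follows from the choice of genes that are high in an F1/proestrus sample.

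Without F1/proestrus 5, 12 of the 23 estimates were higher and 11 lower in F2/metestrus, with a median of 0.02 (0.0040 over all genes). None of the 23 then had an unadjusted p under 0.05, against 3.20% of all 24220 genes, and again 0 genes were called. *Scn10a* went from a log2 fold change of -8.84 ± 2.40 (SE) to -1.0 ± 0.91, *Avil* from -5.45 ± 1.53 to -0.35 ± 0.28 and *Trpv1* from -4.99 ± 1.60 to 0.87 ± 0.49. *Acpp* went from -3.25 ± 1.12 to 0.38 ± 0.22, and *Isl2* from -1.83 ± 0.91 to 0.65 ± 0.40. For *Trpv1*, *Acpp* and *Isl2* the sign turned. For the other tested genes named by rule the estimates moved less, though the sign turned for all of them but *Scn9a*. *Prph* went from -0.47 ± 0.54 to 0.46 ± 0.34, *Sncg* from -0.53 ± 0.39 to 0.22 ± 0.14 and *Piezo2* from -0.83 ± 0.45 to 0.06 ± 0.17. *Scn9a* went from -0.70 ± 0.34 to -0.08 ± 0.07 and *Fam19a4* from -0.71 ± 0.44 to 0.18 ± 0.15. DESeq2 with its default settings gave no p for 22 of the 31 genes because of an outlying count, against 0.296% of all genes.

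**Figure D4:**
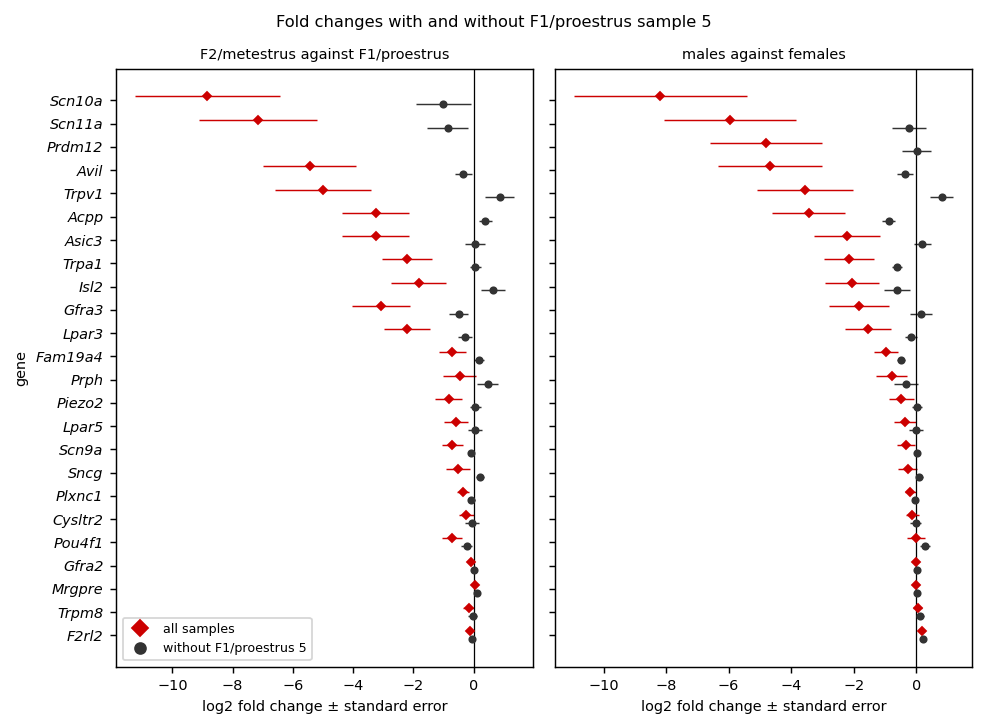
Log2 fold changes of the sensory ganglion genes that had enough counts to be tested, with bars of 1 standard error. Red diamonds are fits of all samples and black circles are fits without F1/proestrus 5. The left panel is F2/metestrus against F1/proestrus and the right panel is males against females. In the left panel the lowest estimate is -8.84 with all samples and -1.0 without F1/proestrus 5, and in the right panel it is -8.18 and -0.88.

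The comparison of 6 males with 12 females asks whether the formalin-exposed DHSC differs between the sexes. None of the genes was called by edgeR with or without F1/proestrus 5, while *Acpp* and *Fam19a4*, both lower in males, were called by DESeq2. In the edgeR test of 24862 genes, 49 genes were called (0.197%), 37 of them higher in males, and 2416 genes (9.72%) had an unadjusted p under 0.05. Of the 31 genes, 24 were tested, 0 were called, 12 had an unadjusted p under 0.05, and 22 had a lower estimate in males, with a median of -0.87 beside -0.0013 over all genes. With all samples, that direction follows from the choice of genes that are high in F1/proestrus 5, a female sample. Without F1/proestrus 5, 77 of 24739 genes were called (0.311%), 62 of them higher in males. Of the 23 genes then tested, 12 estimates were higher and 11 lower in males, with a median of 0.01, and 5 had an unadjusted p under 0.05 (9.56% of all genes did).

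*Acpp* had 0.329, 0.566 and 0.739 CPM as the lowest, median and highest male values. In females it was 0.645, 0.947 and 1.80 CPM without F1/proestrus 5, so the sexes overlapped narrowly: male 3 was above F1/proestrus 6 and just above F2/metestrus 4. The log2 fold change of *Acpp* in males was -3.43 ± 1.16 (SE, adjusted p = 0.328, edgeR) with all samples and -0.88 ± 0.20 without F1/proestrus 5 (adjusted p = 0.0784, edgeR). Within the library series it was -0.90 ± 0.24 in replicates 1 to 3 and -0.87 ± 0.33 in replicates 4 to 6 without F1/proestrus 5. *Fam19a4* had 0.814, 1.10 and 1.29 CPM in males and 1.10, 1.52 and 1.85 CPM in females without F1/proestrus 5. Its log2 fold change was -0.96 ± 0.37 with all samples and -0.49 ± 0.13 without (adjusted p = 0.398 and 0.166, edgeR), with -0.37 ± 0.16 and -0.65 ± 0.21 in the library series. *Trpa1* showed 0.393, 0.524 and 0.761 CPM in males and 0.558, 0.814 and 1.14 CPM in females without F1/proestrus 5, with -2.14 ± 0.80 and -0.62 ± 0.17 (adjusted p = 0.387 and 0.176, edgeR). These genes had lower estimates in males with and without F1/proestrus 5, and the groups overlapped.

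*Trpv1* and *F2rl2* were the other genes with an unadjusted p under 0.05 without F1/proestrus 5. *Trpv1* had 0.109 to 0.356 CPM in males and 0.0103 to 0.352 CPM in females without F1/proestrus 5, and its log2 fold change turned from -3.55 ± 1.54 to 0.81 ± 0.38 (adjusted p = 0.465 and 0.506, edgeR). In the library series it was 1.55 ± 0.44 and 0.11 ± 0.49. *F2rl2* had 34.0 to 45.4 CPM in males and 30.0 to 42.6 CPM in females without F1/proestrus 5, with 0.18 ± 0.08 and 0.22 ± 0.08 (adjusted p = 0.484 and 0.340, edgeR). *Scn10a* fell below the count filter without F1/proestrus 5, and with it the estimate was -8.18 ± 2.76 (adjusted p = 0.326, edgeR). For the remaining genes named by rule the estimates without that sample were -0.36 ± 0.24 (*Avil*), -0.33 ± 0.37 (*Prph*), 0.10 ± 0.12 (*Sncg*), -0.62 ± 0.41 (*Isl2*), 0.03 ± 0.16 (*Piezo2*) and 0.03 ± 0.08 (*Scn9a*). *Mrgprd* did not pass the count filter of either comparison in edgeR, with or without F1/proestrus 5.

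How DESeq2 handles an outlying count decided which genes it called between the sexes. By default it replaced 1 count in each of 22 of the 31 genes, all in F1/proestrus 5. Over all genes and samples, 160 of 45823 genes (0.349%) were marked for a replacement, and 121 genes had a count replaced in F1/proestrus 5. The 14289 counts of *Scn10a* became 5, the 15111 of *Avil* became 60 and the 6725 of *Acpp* became 93. With these replaced counts 166 genes were called (0.362%), among them *Acpp* (log2 fold change -0.86 ± 0.20, adjusted p = 0.00595) and *Fam19a4* (-0.48 ± 0.13, adjusted p = 0.0427), while *Trpa1* was at an adjusted p of 0.052. With the counts left as deposited, 169 genes were called (0.369%), and the 5 from the list were *Scn10a* (adjusted p = 0.0213), *Scn11a* (0.0262), *Avil* (0.0262), *Prdm12* (0.0478) and *Acpp* (0.0486), each lower in males. These 5 calls use the counts of F1/proestrus 5 by which the genes were chosen, so they are no test of a sex difference. With F1/proestrus 5 left out, DESeq2 called 223 genes (0.488%), again with *Acpp* (adjusted p = 0.00497) and *Fam19a4* (0.0384) and with *Trpa1* at 0.0503. *Scn10a*, *Scn11a*, *Avil* and *Prdm12* were then not called, with adjusted p of 0.805, 0.920, 0.632 and 0.995 (DESeq2).

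Schwann cell genes moved between the sexes in the same fits. *Ncmap* was called higher in males with all samples (log2 fold change 0.67 ± 0.11, adjusted p = 0.00654, edgeR), where 0.197% of all genes were called. Without F1/proestrus 5, 0.311% of all genes were called. Of the 9 Schwann cell genes, 5 were then called higher in males, among them *Prx*, *Pmp22*, *Ncmap* and *Dhh*. All 9 had higher estimates in males in both fits. The 14 further ganglion neuron genes that were tested had 0 calls in either comparison. With 0% to 0.311% of all genes called in these fits, 0 calls among 14 genes says little about them. Without F1/proestrus 5 the median log2 fold change of the 14 was 0.04 in males against females and 0.07 in F2/metestrus against F1/proestrus. The part of Schwann cell content in the values of *Acpp* and *Fam19a4* was not tested.

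Across the other 17 samples *Prph* and *Isl2* spanned 11.0-fold and 12.6-fold, and they varied with the genes of spinal motor neurons, whose cell bodies lie in the ventral horn. The 4 motor neuron genes summed for this were *Chat*, *Slc5a7* and *Slc18a3* of acetylcholine synthesis and transport, and the factor *Mnx1*. *Isl1*, which is also on the motor neuron marker list, was left out of this sum. The summed level of the 4 genes was 16.0 CPM in male 5 and 24.2 CPM in F1/proestrus 2, the lowest samples. It was 132 CPM in F1/proestrus 3, the highest. *Prph* was likewise lowest in male 5 (5.22 CPM) and F1/proestrus 2 (7.63 CPM). On a log2 scale (pseudocount of 0.1 CPM) Pearson's r was 0.983 for *Prph* and Spearman's rho 0.956, each with a permutation p of 1e-05, the smallest that 100000 permutations give. For *Isl2* r was 0.956 (permutation p = 1e-05) and rho 0.882 (permutation p = 2e-05). Without male 5 and F1/proestrus 2, r was 0.972 and 0.898, and within the library series it was 0.989 and 0.983 for *Prph* (n = 9 and n = 8) and 0.949 and 0.981 for *Isl2*.

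In the same 23 relations, computed for every gene tested without F1/proestrus 5, *Pou4f1* ran the other way, with r of -0.788 (permutation p = 0.00044) and rho of -0.745 (permutation p = 0.00069). It had r of -0.771 without the same 2 samples and -0.754 and -0.956 within the series. *F2rl2* had r of -0.652 (permutation p = 0.00467) and rho of -0.669 (permutation p = 0.00401), with -0.605 without the 2 samples and -0.493 and -0.707 within the series. For the other 19 genes r lay between -0.426 and 0.485. *Scn9a*, *Trpa1*, *Avil* and *Acpp* were among them, with r of 0.338, 0.0559, -0.0554 and 0.399. F1/proestrus 5 had a summed level of the 4 motor neuron genes of 107 CPM, within the range of the other samples. Its *Prph* and *Isl2* were above all of them. *Isl1*, left out of the sum, was also highest in F1/proestrus 5, at 12.0 CPM against 1.19 to 2.69 CPM.

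**Figure D5:**
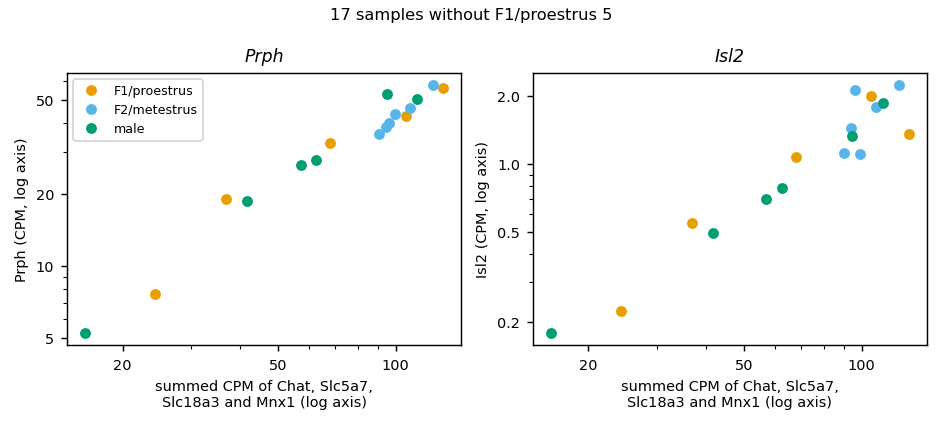
*Prph* (left) and *Isl2* (right) CPM against the summed CPM of *Chat*, *Slc5a7*, *Slc18a3* and *Mnx1*, on log axes, in the 17 samples other than F1/proestrus 5, with 1 point per sample colored by group. Pearson's r on the log2 scale is 0.983 and 0.956, and male 5 is the lowest point in both panels.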

How the data were processed

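Counts of reads on exons were deposited by the authors, who mapped reads uniquely to mm10 with Subread and counted them with featureCounts, with no normalization. The submitters' processing notes name bcl2fastq 2.20.0.422, Subread 2.0.3 and DESeq2 1.3.0. The labels describe SMART-Seq cDNA with Nextera libraries, whereas the methods name a TruSeq kit. The authors' second table holds the fold changes and p-values of a single comparison and was used only to pair gene IDs with symbols.

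CPM values were computed with TMM factors, and RPKM values from exon lengths in GENCODE vM21, which placed 55480 of the 55573 IDs. Genes were filtered with filterByExpr (minimum count 10, minimum total 15) and tested with edgeR 4.0.16 (quasi-likelihood, Benjamini-Hochberg, FDR of 5%) in R 4.3.3, over the 12 females or all 18 samples, and tested on simulated data. Standard errors were obtained from each fold change and its F statistic. DESeq2 1.42.0 and the other settings were alternatives. The 31 genes, the marker lists and the tests were chosen with earlier results of these data known. Fold changes are given for 11 genes fixed in a rule and for any other gene past the FDR, levels for all 31, and the 10 genes outside the list with the largest ratio are named. *Trpa1* and *F2rl2* were named after their values were seen. Replicate numbers were not treated as pairing the samples.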

Additional observations from a re-analysis of the deposited data

Results flagged for a closer look

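In each group of 6 samples, the distance from the most extreme sample to its nearest neighbor was divided by the range of the group, and 89 groups of a gene were read against Dixon's 95% critical value. Chance alone marks about 1 in 20 groups of normally distributed values. That rate does not hold for F1/proestrus, where the genes were chosen by 1 of the samples. A group with counts in only 1 sample has a ratio of 1 whatever its level. In F1/proestrus, 26 of the 31 genes were marked, each for the high value of F1/proestrus 5. The ratio was 1 for *Mrgpra3* and *Mrgprx1*, 0.999 for *Scn10a*, *Scn11a* and *Mrgprd*, 0.997 for *Prdm12*, 0.996 for *Avil*, 0.995 for *Trpv1*, 0.994 for *Acpp* and 0.992 for *Tmem233*. It was 0.981 for *Gfra3*, 0.979 for *Asic3*, 0.974 for *Trpa1*, 0.97 for *Mrgprb4*, 0.958 for *Lpar3*, 0.945 for *Nppb*, 0.94 for *Scn9a*, 0.939 for *Isl2*, 0.932 for *Fam19a4* and 0.925 for *Mrgprb5*. The lowest ratios were 0.884 for *Piezo2*, 0.866 for *Sncg*, 0.823 for *Lpar5*, 0.753 for *Prph*, 0.721 for *Pou4f1* and 0.679 for *Plxnc1*. These values describe the sample by which the genes were chosen.

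Outside F1/proestrus, 6 groups were marked, each for a different sample. In F2/metestrus, *Scn11a* was marked for F2/metestrus 1 (25 counts, 0.741), *Trpv1* for F2/metestrus 4 (32 counts, 0.636), *Lpar5* for F2/metestrus 3 (64 counts, 0.66) and *Mrgprb5* for F2/metestrus 5 (2 counts, 1). In males, *Mrgpra3* was marked for male 2 (1 count, 1) and *Mrgprb5* for male 3 (2 counts, 1). The last 3 lie under the 3 counts that a count of 0 allows.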

How the results depend on the processing

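Left out one at a time, the samples gave 0 calls among females and 25 (without male 5) to 77 (without F1/proestrus 5) calls between the sexes, against 49, and 0 calls of the 31 genes in each. Male 4 also moved that count by over 1.5 times, to 30. Between the sexes, DESeq2 called 166 genes by default, 169 with outlying counts left in and 223 without F1/proestrus 5, and of the 31 genes it called 2, 5 and 2. Among females it called 2, 5 and 2 genes. The library series as a covariate gave 134 calls between the sexes (177 without F1/proestrus 5), replicates 1 to 3 alone 16, replicates 4 to 6 alone 13 (35 without F1/proestrus 5), and genes with at least 10 counts in every sample 31, with fewer genes tested. The covariate and series fits without F1/proestrus 5, and DESeq2 without it, were chosen after seeing the data. The count of 30 genes highest in F1/proestrus 5 was the same with DESeq2 size factors and with library totals.

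The numbers shared by replicates were not treated as a pairing in the main fits. Same-numbered samples correlated by -0.105 to 0.228 in their deviations, over 0.1 in 9 of 18 pairs, and 5 of 18 samples correlated best with their own number. These correlations cannot exclude a pairing. With the replicate block, 148 genes were called between the sexes (152 without F1/proestrus 5) and 0 among females, and the estimates for F2/metestrus turned to 0.27 for *Prph* and 0.073 for *Isl2*. With the block and without F1/proestrus 5 they were 0.19 for *Acpp*, 0.16 for *Fam19a4*, 0.89 for *Trpv1*, 0.73 for *Prph*, 0.21 for *Sncg*, 0.79 for *Isl2*, 0.018 for *Piezo2* and 0.089 for *Trpa1*. In males against females they were 0.88 for *Trpv1*, 0.087 for *Sncg*, 0.027 for *Piezo2* and 0.034 for *Scn9a*.

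The sign of several log2 fold changes turned in fits that lacked F1/proestrus 5 or replaced its counts, as did the values without it given in the report. In F2/metestrus against F1/proestrus, DESeq2 without F1/proestrus 5 gave 0.38 for *Acpp*, 0.18 for *Fam19a4*, 0.88 for *Trpv1*, 0.47 for *Prph*, 0.22 for *Sncg*, 0.66 for *Isl2*, 0.061 for *Piezo2* and 0.059 for *Trpa1*. Replicates 1 to 3 alone gave 0.32, 0.63, 0.25, 0.22, 0.18, 0.035, 0.085 and 0.067 for *Acpp*, *Trpv1*, *Prph*, *Sncg*, *Isl2*, *Piezo2*, *Trpa1* and *F2rl2*. The series as a covariate without F1/proestrus 5 gave 0.39, 0.19, 0.74, 0.49, 0.20, 0.64, 0.11 and 0.082 for *Acpp*, *Fam19a4*, *Trpv1*, *Prph*, *Sncg*, *Isl2*, *Piezo2* and *Trpa1*, and replicates 4 to 6 without it gave 0.48, 0.53, 0.83, 0.81, 0.18, 1.26, 0.21 and 0.069 for the same genes and 0.0046 for *Scn9a*. In males against females, *Trpv1*, *Sncg*, *Piezo2* and *Scn9a* were at 0.78, 0.090, 0.017 and 0.024 with DESeq2 by default, at 0.80, 0.10, 0.018 and 0.025 with DESeq2 without F1/proestrus 5, at 1.55, 0.030, 0.13 and 0.061 in replicates 1 to 3 alone, and at 0.88, 0.090, 0.029 and 0.035 with the series as a covariate without F1/proestrus 5. In replicates 4 to 6 without it, *Trpv1* was at 0.11 and *Sncg* at 0.14. Left out one at a time, the samples gave these ranges among females: -3.50 to 0.38 for *Acpp*, -0.86 to 0.18 for *Fam19a4*, -5.31 to 0.87 for *Trpv1*, -0.70 to 0.46 for *Prph*, -0.70 to 0.22 for *Sncg*, -2.08 to 0.65 for *Isl2*, -0.99 to 0.059 for *Piezo2* and -2.44 to 0.056 for *Trpa1*. Between the sexes they gave -3.68 to 0.81 for *Trpv1*, -0.36 to 0.10 for *Sncg*, -0.64 to 0.026 for *Piezo2* and -0.39 to 0.032 for *Scn9a*. The cause of these shifts was not tested beyond leaving the sample out.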
